A study of Mus musculus with 13 samples.

Results

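Club cells, the secretory cells of the conducting airway, were examined in single-cell RNA counts from dissociated mouse lungs. They were chosen by a gate on the counts themselves, among the barcodes of libraries 1, 2, 3 and 7 that had at least 500 UMIs (unique molecular identifiers, each taken as 1 captured RNA molecule) and at most 20% of them from mitochondrial genes. A club cell had Scgb1a1 at 4% of its UMIs or more, at least 2 UMIs summed over Cyp2f2 and Scgb3a2, and 0 UMIs summed over Ptprc, Cdh5, Foxj1 and Col1a1, which mark leukocytes, endothelial cells, ciliated cells and fibroblasts. The gate held 94 of the 22357 barcodes within the limits, or 0.42% (exact 95% binomial interval 0.34% to 0.514%), out of 37344 barcodes in all 7 libraries of the matrix. Since the counts chose the cells, the levels of these 7 genes describe the gate and are no finding.

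The lungs came from C57BL/6 mice, and each group of the single-cell experiment was 1 mouse. By the titles the groups were Asthma (sensitized and challenged with ovalbumin), PPE-emphysema (porcine pancreatic elastase given weekly), PPE-recovery (a single dose of elastase) and Control. The ages of the mice were not found in the sources used here, and 9 further titles (Acute, Con and emphysema, 3 each) were not analysed here. No label tied a library number to a group, so the counts were read as 1 sample. Values are therefore given per library as descriptions, with no test between models, and whether a library is 1 mouse cannot be told from the labels.

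Club cells line the bronchioles between the ciliated cells. They secrete secretoglobins, small proteins of the airway lining fluid of which Scgb1a1 (club cell secretory protein, CC10) is the most abundant, together with surfactant proteins and antimicrobial proteins. Their smooth endoplasmic reticulum carries cytochrome P450 enzymes that convert inhaled compounds, and they can renew themselves and give rise to ciliated and mucus cells. Goblet cells are the mucus-secreting relatives that appear in allergic airways, and in the mouse the step from one to the other is gradual.

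Libraries 1, 2, 3 and 7 held 29, 18, 44 and 3 club cells, which were 0.534%, 0.222%, 0.805% and 0.0895% of their barcodes within the limits. Libraries 4, 5 and 6 held 0. The exact intervals of the shares ran from 0.358% to 0.766% in library 1, from 0.132% to 0.35% in library 2, from 0.586% to 1.08% in library 3 and from 0.0185% to 0.261% in library 7. Library 3 thus lay above libraries 2 and 7, while the intervals of libraries 1 and 3 overlapped. The club cells with 10000 UMIs or more numbered 7, 14, 15 and 2 in libraries 1, 2, 3 and 7, or 0.129%, 0.173%, 0.275% and 0.0596% of the barcodes. By these shares library 3 was again highest and library 7 lowest, while libraries 1 and 2 changed places. Their intervals all overlapped (0.0944% to 0.289% in library 2 and 0.154% to 0.452% in library 3), so these few cells do not settle the order. Of the 44 club barcodes of library 3, 20 fell in sets of alike profiles (described below), as did 14 of the 29 of library 1. How dissociation and capture enter into these shares was not tested. All intervals cover counting error only and none covers the spread between mice. The 7 libraries held 29701569 to 79439569 UMIs each over all their barcodes. Pairs of the 4 libraries used had 6 to 17 barcode sequences in common, and 0 club cells carried one of these.

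The gate met free RNA of Scgb1a1, which leaks from broken cells into every droplet, in the following way. Lymphocytes, which should lack Scgb1a1, carried it at a median of 0.0432% of UMIs per cell (0.0252%, 0.0637%, 0.0881% and 0.00658% in libraries 1, 2, 3 and 7, 3194 cells in all), and the 99th percentile was 0.454%. The 3448 endothelial cells had a median of 0.0624%. The threshold of 4% thus stood far above the share that free RNA left in nearly all cells of these types. Still, 6 of the 3194 lymphocytes reached 4% and had the 2 partner UMIs, and the highest carried Scgb1a1 at 54.1%. Summed over all lymphocytes Scgb1a1 made up 0.569% of UMIs (0.566% to 0.572%), against 0.0461% once these 6 were set aside. Among endothelial cells 7 reached 4% and 6 of them had the partners. These cells hold RNA of their own, so their shares do not show what a droplet of mostly free RNA would hold. The 56 club cells under 10000 UMIs had mitochondrial shares down to 0%, and whether any were such droplets was not tested.

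The partner genes came with free Scgb1a1 as well. In lymphocytes under 4%, each 1000 UMIs of Scgb1a1 came with 31 UMIs of Scgb3a2, 15.5 of Cyp2f2 and 22.3 of Scgb3a1. In club cells the same numbers were 37.2, 10.9 and 30.7. By library the numbers for Scgb3a2 were 33.0, 24.2, 38.4 and 3.66 in these lymphocytes and 37.2, 27.8, 50.7 and 21.4 in club cells (libraries 1, 2, 3 and 7). The lymphocyte numbers were thus near those of the cells in libraries 1, 2 and 3 and lower in library 7. Little free Scgb1a1 stood behind the library 7 number, at 0.00994% of UMIs in these lymphocytes. Of the 3 club cells there, 1 held 94.1% of the Scgb3a2 UMIs. No interval was computed for these numbers. For Cyp2f2 the numbers were 20.2, 25.2, 6.73 and 9.16 in these lymphocytes and 9.79, 9.75, 13.1 and 9.65 in club cells. The lymphocyte numbers thus lay above the cells in libraries 1 and 2, below them in library 3 and near them in library 7.

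Few barcodes lay near the threshold. Of the 22357 barcodes, 21672 had Scgb1a1 under 0.5% of UMIs, 27 had 2% to 10%, and 118 had 40% or more. The lowest club cells had 4.02%, 6.24%, 6.43% and 8.94%, and the highest barcodes outside had 3.74%, 3.27%, 3.22% and 2.2%. Of the partner UMIs, 3 barcodes past the 4% had 0 and 1 had 1, while 1 club cell had exactly 2.

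**Figure D1:**
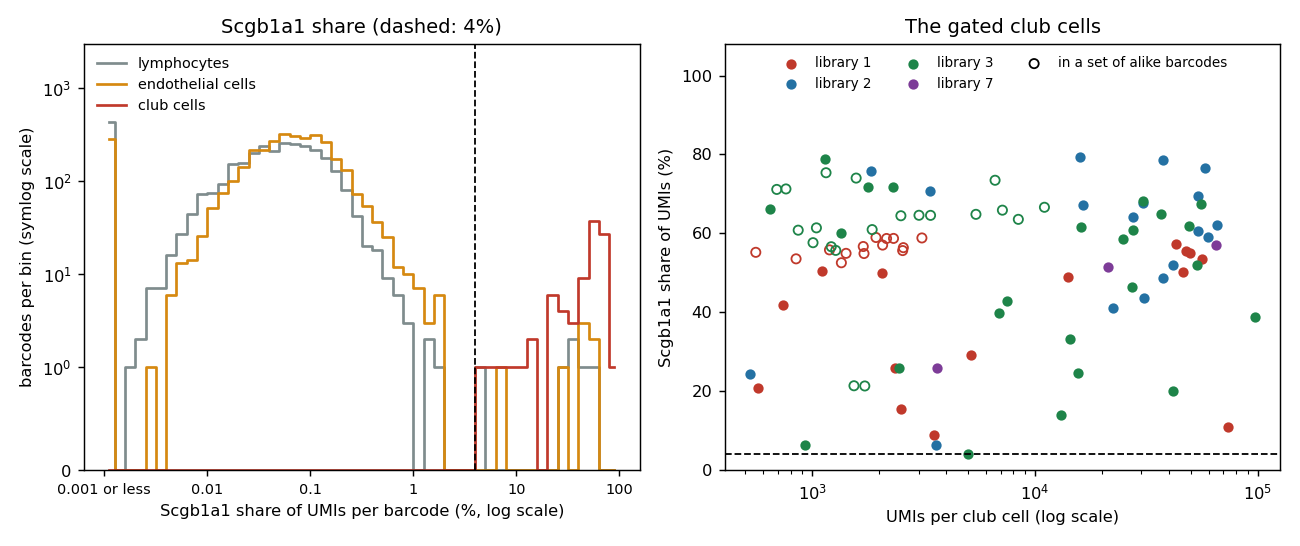
Left, number of barcodes (symlog scale) by Scgb1a1 share of UMIs (%, log scale) for lymphocytes, endothelial cells and club cells, with the gate at 4% dashed. Right, Scgb1a1 share (%) against UMIs (log scale) of each of the 94 club cells, colored by library, open circles being the 34 barcodes in sets of alike profiles. Lymphocytes and endothelial cells centre below 0.1% and a few of them stand among the club cells at over 4%.

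The condition of 0 UMIs over Ptprc, Cdh5, Foxj1 and Col1a1 decided more than the other parts. It left out 71 barcodes that met the rest (14, 26, 25 and 6 in libraries 1, 2, 3 and 7). Ptprc was found in 29 of these, Foxj1 in 28, Cdh5 in 20 and Col1a1 in 10, and 24 of the 71 had exactly 1 UMI of the 4 genes together. They were deeper than the club cells, with a median of 47731 UMIs against 3594, and 62 of them had 10000 UMIs or more against 38 club cells. Other cells held stray UMIs of such genes too: lymphocytes had Cdh5 at 59.4 CPM (UMIs per 1000000 UMIs), Col1a1 at 19.3 and Foxj1 at 1.96. For Ptprc no such level can be given, since the rules for lymphocytes and endothelial cells use it. How many of the 71 were doublets and how many were club cells with stray UMIs was not tested. Club cells held 34.5% of the Scgb1a1 UMIs of the 4 libraries, and club cells with the 71 barcodes held 96.1%.

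The 94 cells differed greatly in depth. They had 527 to 97039 UMIs each and 1616868 in all, of which as few as 14 cells made up the larger part. Median UMIs per cell were 2316, 30650.5, 4208 and 21329 in libraries 1, 2, 3 and 7. The 56 cells under 10000 UMIs held 8.51% of the UMIs, had a median of 453 genes and took 1.42% of their UMIs from mitochondrial genes, whereas the 38 deeper cells had a median of 3748 genes and 4.97%. Scgb1a1 made up the same share in both, with medians of 56.6% and 57.2%. Since the sums below weight cells by depth, they describe the deep cells above all.

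Part of the shallow barcodes had profiles alike to one another. Pairs of barcodes within a library were compared by a chi-square of their counts divided by its degrees of freedom, where 1 is what sampling alone gives, and barcodes were joined while the average stayed under 2. This gave 8 sets with 34 barcodes, so that 68 barcodes would remain if each set were counted as 1. The largest set held 14 of the 29 barcodes of library 1, with 558 to 3105 UMIs each, Scgb1a1 between 52.6% and 59.0% and a median chi-square per degree of freedom of 1.20. Its barcode sequences differed at 7 bases or more, and the nearest deep cell of the library stood at 7.04. The other 7 sets lay in library 3 and held 2 to 4 barcodes each. With every cell thinned to 1000 UMIs, 60 of 153 pairs of shallow barcodes in library 1 stayed under 2 (39.2%), against 3 of 21 deep pairs (14.3%) and 0 of 126 mixed pairs. In library 3 the counts were 26 of 276 (9.42%), 7 of 105 (6.67%) and 3 of 360, so shallow pairs there passed little more often than deep ones. The sets themselves were formed without thinning, so differences between barcodes of few UMIs were harder to detect. In 1 set of library 3 the mitochondrial share ran from 0.318% to 5.34%. Whether a set is 1 cell spread over several droplets, droplets of free RNA or separate cells alike in state was not tested. The 10000 UMIs and the chi-square limit were chosen after the data were seen.

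Markers that the gate did not use were present. Of 17 further club markers 16 were detected, only Itm2a being at 0 (0 of 1616868 UMIs, which allows up to 1.86 CPM). Detection here means 1 UMI or more in any club cell. By that measure 10 of 15 ciliated, 6 of 8 basal and 18 of 18 alveolar type 2 markers were detected too, so the count alone does not tell cell types apart. Cbr2, a carbonyl reductase of club cells, had UMIs in 93 of 94 cells at 5370.3 CPM. With cells thinned to 2000 UMIs, which left out 30 club cells and 80 lymphocytes as shallower, it was found in 64 of 64 club cells (94.4% to 100%) and in 2.31% of 3114 lymphocytes. Before thinning the shares were 98.9% and 5.82%, at median depths of 3594 and 5794.5 UMIs. Here and below, the intervals of such shares treat barcodes as separate cells, also those in sets of alike profiles. No share was computed with each set summed. Wfdc2, a defense gene outside the 17, was found in 98.4% of the thinned club cells and 2.02% of the lymphocytes. Hp was found in 87.5% and 3.44% (97.9% and 4.76% for Wfdc2, and 92.6% and 6.23% for Hp, before thinning).

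Most defining markers of other airway cells were at or near 0. The 15 ciliated markers summed to 132 CPM, of which Tubb4b, a tubulin that many cells use, gave 113, and Foxj1, Rsph1, Cfap52, Mlf1 and Ccdc78 were at 0. Of 8 basal markers Krt14 and Ngfr were at 0 and Krt5 (2.47 CPM) came from 1 cell, but the list summed to 175 CPM (298, 25, 266 and 0 in libraries 1, 2, 3 and 7). Most of this was Icam1, an adhesion molecule of many cells, with 75.5 CPM in 24 cells, and Krt15 with 73.6 CPM from 5 cells, of which 1 held 67.2%. Of the 3 basal genes with enough UMIs, Krt15 and Aqp3 were at least 4-fold above both ciliated and alveolar type 2 cells. The neuroendocrine markers Calca, Chga, Resp18 and Scg5 and the tuft cell markers Trpm5, Pou2f3 and Il25 were at 0. Cd3e was at 0, as were Ptprc, Cdh5 and Col1a1 by the gate. The summed level of the 15 markers of other cell types was 3179, 672, 1144 and 55.8 CPM in libraries 1, 2, 3 and 7. In library 1 it was mostly hemoglobin, with Hbb-bs at 1547 CPM, 99.8% of it from 1 cell. Lyz2, a lysozyme of myeloid and alveolar cells, stood at 769 CPM in club cells, under its level of 2481 CPM in lymphocytes.

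Alveolar type 2 cells left a clearer trace. Their surfactant gene Sftpc was found at 48.2, 85.8, 4870.1 and 1227 CPM in the club cells of libraries 1, 2, 3 and 7, and at 1343, 829, 3059 and 189 CPM in lymphocytes of the same libraries. Club cells were thus below the lymphocyte level in libraries 1 and 2 and above it in libraries 3 and 7. A single cell held 41.5% of the Sftpc UMIs, 4 club cells had Sftpc at 1% of UMIs or more, and 3 club cells met every part of the rule for alveolar type 2 cells. Without the 4 cells Sftpc fell from 1900.0 to 70.2 CPM over the libraries, and without library 3 to 172 CPM, while under the filter of the study on depth, described with the goblet genes, it rose to 12574 CPM. After thinning, 26.6% of club cells (16.3% to 39.1%) and 14.0% of lymphocytes had a UMI of it (55.3% and 34.4% before thinning).

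Secretoglobins filled these cells. Scgb1a1 (chr19:9083636-9087958, minus strand, GRCm38) gave 53.5% of all UMIs, and 44.4%, 62.2%, 50.7% and 54.4% in libraries 1, 2, 3 and 7. Per cell its share ran from 4.02% to 79.4% with a median of 56.8%. Together with Scgb3a2 and Scgb3a1 it reached 57.1% (46.6%, 65.8%, 55.7% and 55.6%). The kit tags each molecule once at its 3′ end, so CPM of different genes were compared without division by length.

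Scgb3a2, a secretoglobin that marks the distal airway, was found in 88 of 94 cells at 19913 CPM (19696 to 20131), and at 16518, 17304, 25739.7 and 11665 CPM in libraries 1, 2, 3 and 7. Its median per cell was 2221, 15764, 29262 and 2907 CPM in the same order. Among cells of 10000 UMIs or more it was 4343, 12511, 18152 and 9054 CPM, so the medians changed with depth. As a gate gene, its levels describe the gate. Scgb3a1, a secretoglobin of the proximal airway that the gate did not use, behaved differently. It reached 16412 CPM from only 43 cells, with 5422, 18414, 23897 and 11.2 CPM in libraries 1, 2, 3 and 7, the last being 1 UMI. Scgb1c1 followed at 86.0 CPM in 32 cells, and Scgb2b27, Scgb1b27, Scgb1b2, Scgb2b2, Scgb1b3 and Scgb2b3 were at 0.

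Enzymes that handle foreign compounds came next. Of 28 phase 1 enzymes 27 were detected, and they summed to 15408 CPM (13795, 13982, 17547 and 16828 in libraries 1, 2, 3 and 7). Cyp2f2, the cytochrome P450 that activates naphthalene in mouse club cells, stood at 5846 CPM in 90 cells and between 4350.1 and 6669.5 CPM in all 4 libraries. Cbr2 lay between 4295 and 8040.4 CPM. Aldh1a1, a retinaldehyde dehydrogenase, stood at 1376 CPM (1171 to 1793), the carboxylesterase Ces1d at 667 CPM (569 to 732) and the P450 reductase Por at 423 CPM (318 to 569). These levels stayed within a factor of 2 over the libraries, and Cyp2e1 was at 0.

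Of the 25 conjugation and antioxidant enzymes Mgst1, a microsomal glutathione transferase, led with 1970.5 CPM (1159.8 to 2115). Prdx6, a peroxiredoxin, stood at 956 CPM (834 to 1062) and Gstm1 at 398 CPM (222 to 471). Gsto1 was uneven: its 2318 CPM in library 1 against 302, 674 and 55.8 in libraries 2, 3 and 7 rested on 1 cell, which held 52.6% of all its UMIs. Ugt1a6a and Sod3 were at 0.

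Promoters are shown for 3 genes. Cyp2f2, a gate gene, had an even summed level over the libraries, though it ran from 0 to 14529 CPM per cell. Scgb3a1 was found in only part of the cells, and Retnla (below) set library 1 apart. The sequences are those of RefSeq on GRCm38.p6, plus strand, up to the base before the RefSeq or the GENCODE start, whichever comes first. Of the 250 bases before the RefSeq start, 204 are thus shown for Cyp2f2, 192 for Retnla and all 250 for Scgb3a1. Capitals mark CAAGTG, which NKX2 factors such as Nkx2-1 bind, on either strand, or, in Retnla, a stretch that holds TTGCNNAA (C/EBP factors) overlapping TGTTTA on the other strand (FOX factors).
Cyp2f2 (chr7:27119705-27119908): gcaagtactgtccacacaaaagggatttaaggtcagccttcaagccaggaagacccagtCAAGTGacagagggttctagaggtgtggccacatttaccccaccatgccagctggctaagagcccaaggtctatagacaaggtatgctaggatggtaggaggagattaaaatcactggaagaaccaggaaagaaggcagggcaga
Scgb3a1 (chr11:49663345-49663594): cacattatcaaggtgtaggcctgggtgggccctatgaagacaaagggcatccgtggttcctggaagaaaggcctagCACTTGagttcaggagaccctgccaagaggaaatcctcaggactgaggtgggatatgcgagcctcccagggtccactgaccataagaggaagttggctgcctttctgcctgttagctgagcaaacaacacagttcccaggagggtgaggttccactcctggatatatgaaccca
Retnla (chr16:48842359-48842550): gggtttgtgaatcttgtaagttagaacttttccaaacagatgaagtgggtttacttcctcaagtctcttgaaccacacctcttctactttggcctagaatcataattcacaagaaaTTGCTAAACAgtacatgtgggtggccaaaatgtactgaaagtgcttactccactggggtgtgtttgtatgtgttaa
Of all 32851 promoters in the table, taken as the 250 bases before the start and read on both strands, 11.6% held CAAGTG, 12% TGTTTA and 9.56% TTGCNNAA. The matches are letters in a window and no evidence of binding. Nkx2-1 itself stood at 92.2 CPM and Cebpb at 161 CPM.

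Secreted defense proteins summed to 26483 CPM (35093, 15821, 31960.2 and 20865 in libraries 1, 2, 3 and 7), with Bpifb3 and Wfdc18 at 0 among 28 genes. Wfdc2, a small protein with protease-inhibitor domains, was spread over 92 cells at 6912 CPM (9619, 5094, 7258 and 4695), but 55.8% of its UMIs in library 1 came from 1 cell. This was the deepest club cell of that library, with 73082 of its 373098 UMIs, and it also held 71.1% of the Scgb3a2, 95.8% of the Bpifb1, 96.4% of the Ltf and 100% of the Bpifa1 and Reg3g UMIs of library 1. Hp, the hemoglobin-binding haptoglobin, was spread over 87 cells at 3559 CPM and differed by library, with 4457, 3779, 2189.5 and 7539 CPM. Others came from few cells. Bpifa1, an antimicrobial protein of the upper airway, reached 6955 CPM from 14 cells, of which 1 library 3 cell held 43.0%. Reg3g, a lectin that acts on bacteria, reached 2004 CPM from 24 cells and Bpifb1, a relative of Bpifa1, 1699 CPM from 31 cells. Without library 3 Bpifa1 fell to 2734 CPM.

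Surfactant proteins other than Sftpc were made broadly. Sftpa1, a collectin of the lining fluid, was found in 87 of 94 cells at 4065 CPM (2785, 3750.1, 4155 and 10761 in libraries 1, 2, 3 and 7) and in 3.63% of thinned lymphocytes against 84.4% of thinned club cells (10.7% and 92.6% before thinning). Sftpd stood at 888 CPM in 77 cells and Sftpb at 801 CPM in 66 cells. Cxcl15, a chemokine of lung epithelium, stood at 767 CPM in 63 cells.

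Goblet genes were present in part of the club cells, with 17 of 17 detected. Tff2, a trefoil peptide of mucus, stood at 962 CPM in 31 cells, and Muc5b, the main airway mucin of healthy mice, at 641 CPM in 40 cells. Muc5b was found in 34.4% of thinned club cells (22.9% to 47.3%) and 0.193% of lymphocytes (42.6% and 0.313% before thinning). Clca1, a secreted protein typical of goblet cells, reached 986 CPM from 5 cells. Its 3632 CPM in library 1 stood against 302, 118 and 0 CPM in libraries 2, 3 and 7, and 1 cell held 50.6% of its UMIs, so that without library 1 it fell to 192 CPM. Agr2, a disulfide isomerase needed for mucin, had 106 CPM in 11 cells and Fcgbp, a mucus protein, 87.2 CPM in 11 cells. These levels came from the deep cells above all. Under the filter of the study (UMIs and genes within 2 standard deviations of the mean, which puts the upper limit at 21736 UMIs, and mitochondrial UMIs at most 10%) 63 club cells remained, and in them Muc5b fell to 218 CPM, Tff2 to 251, Bpifa1 to 276, Bpifb1 to 364 and Clca1 to 0.

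**Figure D2:**
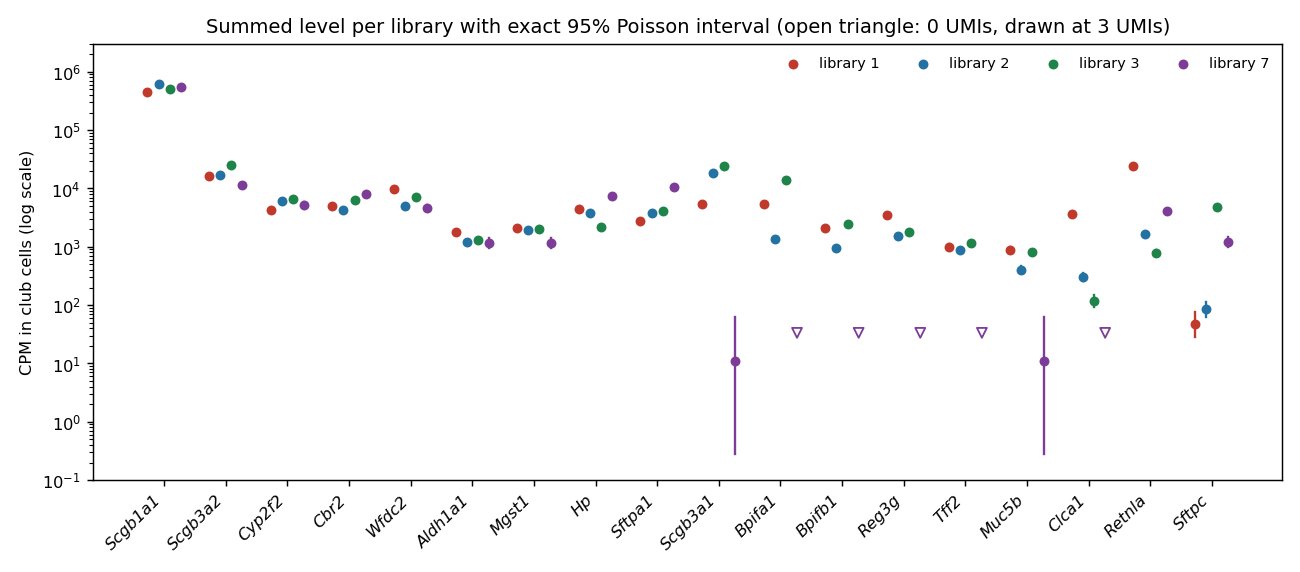
CPM (log scale) summed over the club cells of each library for 18 genes, with exact 95% Poisson intervals where larger than the point. Open triangles mark 0 UMIs in library 7, drawn at the 33.5 CPM that a count of 0 allows there. Genes from Scgb1a1 to Sftpa1 stay within a factor of 4 over the libraries, and genes from Scgb3a1 to Sftpc differ by more.

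Between libraries, 611 of 4468 genes with 20 UMIs or more differed at least 4-fold between the highest and the lowest library, which is 13.7%. With 1 library left out the number was lower whichever it was, which is largely by construction, since a range over fewer libraries is mostly narrower. Over libraries 1, 2 and 3 alone 328 of 4259 genes differed so (7.7%). The widest ranges were those of Scgb3a1 (2143-fold), Bpifa1 (at least 425-fold), Hbb-bs (at least 288-fold), Hba-a1 (at least 147-fold), Clca1 (at least 109-fold), Reg3g (at least 104-fold), Sftpc (more than 100-fold), Hba-a2 (at least 94.0-fold), Chia1 (82.9-fold) and Muc5b (79.8-fold). The hemoglobins came from 1 cell by 98.9% or more of their UMIs. Of the secretory genes, Scgb3a1 had its lowest value in library 7, as did Bpifa1, Clca1, Reg3g and Muc5b. With 3 cells there, a gene that only part of the club cells carry may be missed, and its absence from library 7 cannot be read from these values.

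Retnla and Chia1 set library 1 apart in most of its cells, not in 1. Retnla, a secreted resistin-like protein induced by type 2 cytokines, had 24417 CPM (23918 to 24924) in library 1, 1689 in library 2, 790.4 in library 3 and 4070.4 in library 7. It was found in 29 of 29, 14 of 18, 24 of 44 and 3 of 3 cells. Per cell it ran from 424 to 135764 CPM in library 1 with a median of 18912, while the medians were 679, 34.4 and 3630.3 CPM in libraries 2, 3 and 7. Among the 7 deep cells of library 1, which lie outside its set of 14 alike barcodes, the median was 25920.3 CPM and the lowest value again 424. With the set counted as 1 the median of library 1 was 22507 CPM. The cells of the libraries overlapped, since the highest value was 8681 CPM in library 2 and 49307 in library 3. Free RNA of Retnla was also highest in library 1, with 618 CPM in lymphocytes against 6.39, 39.5 and 256 in libraries 2, 3 and 7. Without library 1 the level over the other libraries was 1431 CPM, against 6735 CPM with it, and without library 3 it was 10194 CPM.

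Chia1, an acidic chitinase, had 1037, 12.5, 25.2 and 167 CPM in libraries 1, 2, 3 and 7 and was found in 24 of 29, 3 of 18, 5 of 44 and 2 of 3 cells. Its median per cell was 3143 CPM in library 1 and 325 CPM in the 7 deep cells there, so the shallow barcodes stood higher than the deep ones. Of its 24 cells there, 14 were the alike barcodes, and with their set counted as 1 the median was 1109 CPM. Without library 1 Chia1 fell from 262 to 29.7 CPM over the libraries. No label says which group library 1 came from.

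Among the 38 club cells with 10000 UMIs or more, Scgb3a1 ran from 0 to 76154 CPM with few cells at intermediate levels. A limit of 500 CPM, set after the values were seen, put 18 cells above (3, 5, 10 and 0 in libraries 1, 2, 3 and 7) and 20 below (4, 9, 5 and 2). The nearest cells stood at 512 and 983 CPM above the limit and at 76.4 and 71.1 CPM below it. All genes named in this comparison were chosen after their values were seen, and the fold changes describe these cells without a test. Of 4175 genes with 20 UMIs or more, 173 (4.14%) were at least 4-fold higher and 53 (1.27%) at least 4-fold lower in the Scgb3a1-rich cells.

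Among mucus and defense genes, Bpifb1, Muc5b, Tff2 and Reg3g were higher in the Scgb3a1-rich cells, while Hp, Lcn2 and Chil1 were lower there. Bpifb1 had 3405 CPM in the rich cells and 7.15 in the poor ones, a ratio of 476 (204 to 1468), with UMIs in 14 of 18 and 1 of 20 cells. It was higher in the rich cells by at least 243-fold in library 1, by 153-fold in library 2 and by at least 147-fold in library 3, but in library 1 a single cell held 95.8% of its UMIs. Muc5b had 1259 against 14.3 CPM, a ratio of 88.1 (47.7 to 184), and 15 of the 18 rich cells stood above every poor cell. Tff2 had 1913 against 11.4 CPM, a ratio of 167 (84.7 to 388), in 16 of 18 and 1 of 20 cells.

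The rich cells were themselves not alike in these genes. Reg3g was found in 11 of 18 of them and in 0 of 20 poor cells, which makes it at least 959-fold higher. Bpifa1 was also found in 11 of 18, but its median among them was 36.9 CPM and its highest value 180876. Clca1 was found in 5 of 18 and Agr2 in 10 of 18 rich cells, and neither in any of the 20 poor ones. Muc5ac, the mucin induced in allergic airways, had 37.2 against 1.43 CPM, in 9 of 18 and 1 of 20 cells. Spdef, the factor that drives the goblet cell program, was low at 20.5 against 4.29 CPM, in 8 of 18 and 3 of 20 cells.

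Lypd2, a small surface protein, set rich and poor cells apart most evenly. Its level was 1607 CPM in rich and 104 CPM in poor cells, a ratio of 15.4 (12.2 to 19.8), and 17 of 18 rich cells stood above every poor cell. Within libraries 1, 2 and 3 the ratio was 41.1, 10.8 and 31.7. Adh7, an alcohol dehydrogenase that acts on retinol, had 210.3 against 1.43 CPM in 14 of 18 and 1 of 20 cells. Sult1d1, a sulfotransferase, was found in 15 of 18 and 0 of 20 cells. Cyp2a5, whose reads can be shared with its near copy Cyp2a4, had 405 against 4.29 CPM. The matrix protein gene Chad had 319 against 48.6 CPM in 18 of 18 and 9 of 20 cells. Il13ra1, a receptor subunit for interleukins 4 and 13, had 84.6 against 8.58 CPM, a ratio of 9.87 (4.3 to 27.9).

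The club markers outside the gate went both ways. Cbr2 differed little, with a ratio of 0.91 (0.871 to 0.952). Lypd2, Gsta4 and Aldh1a1 were higher in the rich cells (15.4, 1.8 and 1.48). Hp, Ldhb, Cldn10 and Upk3a were lower there (0.277, 0.555, 0.622 and at most 0.024). Wfdc2, of the defense list, was 2.23-fold higher in the rich cells. Cyp2f2, Scgb1a1 and Scgb3a2 are genes of the gate. Cyp2f2 had a ratio of 1.12 (1.08 to 1.17), and its single libraries lay on both sides of 1 (0.725, 0.96 and 1.47). Scgb1a1 had 471769 against 611880 CPM, a ratio of 0.771. Scgb3a2 was higher in the rich cells with 29659.8 against 7759 CPM, a ratio of 3.82 (3.71 to 3.94), and by 4.85, 3.28 and 6.9 in libraries 1, 2 and 3. Retnla went one way in library 1 (0.745) and the other in libraries 2 and 3 (1.58 and 11).

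Other genes were higher in the poor cells. Cxcl15 had 1395 CPM in poor and 135 in rich cells, a ratio of 0.0965 (0.0782 to 0.118) that was 0.107, 0.0898 and 0.0997 within libraries 1, 2 and 3. Hp had 6048 against 1672 CPM, a ratio of 0.277 that ran from 0.0283 in library 1 to 0.509 in library 3. Ager, a receptor abundant on alveolar type 1 cells, was found in 15 of 20 poor and 2 of 18 rich cells, with a ratio of 0.0255 (0.00817 to 0.0606). The iron-binding protein gene Lcn2 had 276 against 10.3 CPM, and Upk3a, the uroplakin of a club cell subset near nerve bodies, came from 4 poor cells and 0 rich ones, with 86.6% of its UMIs in 1 cell. Sftpc had 3232 against 24.4 CPM, but its median in poor cells was only 61.9 CPM and 1 cell held 56.0% of its UMIs in the deep cells.

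**Figure D3:**
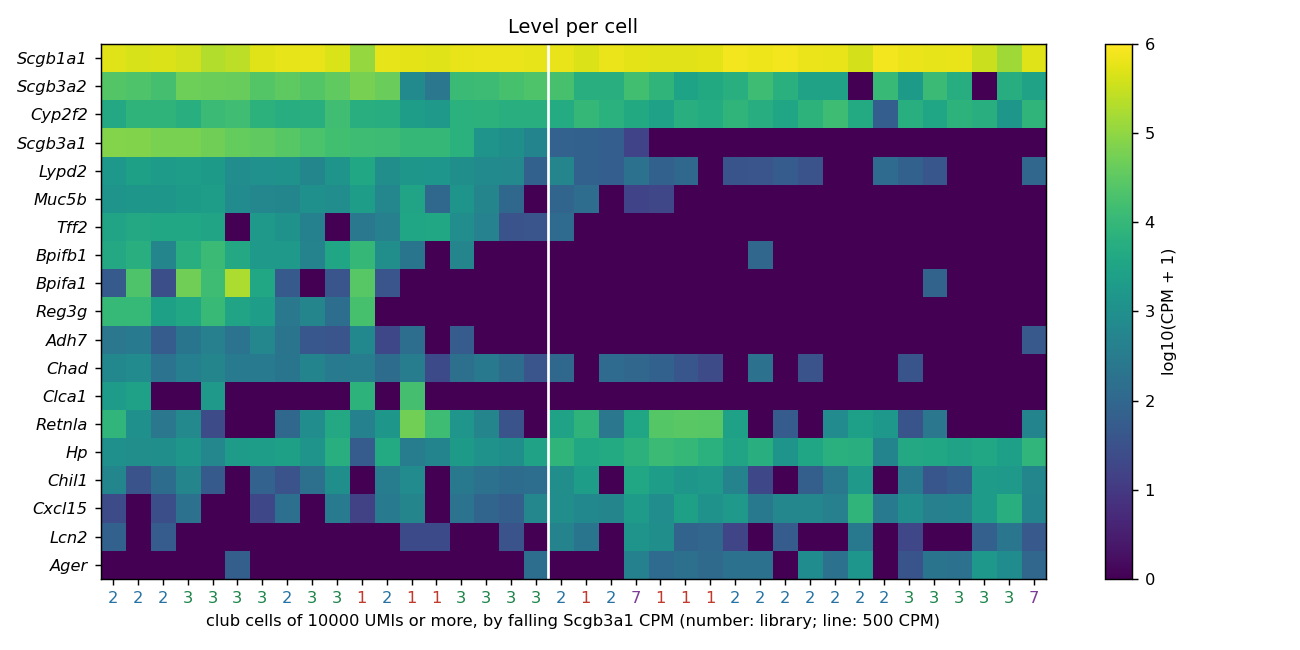
Heat map of log10(CPM + 1) for 19 genes (rows) in the 38 club cells with 10000 UMIs or more (columns), ordered by falling Scgb3a1, with the library number under each column and a white line at 500 CPM. Of the 18 cells left of the line, 18 have UMIs of Lypd2, 17 of Muc5b, 16 of Tff2, 14 of Bpifb1 and 11 of Reg3g, and of the 20 on the right 20 have Cxcl15 and 15 Ager. Lypd2 is also found in 14 cells on the right and Cxcl15 in 13 on the left, at lower levels.

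The same limit was applied to the 62 deep barcodes that the gate had left out for UMIs of the 4 other genes, none of which had a part in the choice of genes. It put 17 above and 45 below 500 CPM (2 and 9, 9 and 16, 5 and 15, 1 and 5 in libraries 1, 2, 3 and 7). Among them the ratio was 494 (288 to 929) for Bpifb1, 72.0 (50.4 to 107) for Muc5b, 96.5 (65.9 to 147) for Tff2 and 7 (6.22 to 7.9) for Lypd2. Reg3g was found in 12 of 17 and 0 of 45. Scgb3a2 had a ratio of 2.99, Chad of 6.19, Adh7 of 19.8 and Il13ra1 of 4.66. The genes of the poor side kept the direction for Hp (0.5), Cxcl15 (0.348) and Ager (0.112), and lost it for Sftpc (2.47), Lcn2 (1.77) and Napsa (2.29). These barcodes hold UMIs of leukocyte, endothelial, ciliated or fibroblast genes, and their part in the ratios was not tested.

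Of 10 genes taken from the rich side, 7 had a promoter in the table. CAAGTG was present in 3 of them (Scgb3a1, Adh7 and S100a6), TTGCNNAA in 2 (Adh7 and Cyp2a5) and TGTTTA in 0, beside the shares in all promoters given above.

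Club cells were then compared with 310 alveolar type 2 cells (Sftpc at 4% of UMIs or more and 2 UMIs or more over Lamp3 and Slc34a2) and 127 ciliated cells (1 Foxj1 UMI or more and 2 or more over Tppp3, Ccdc153, Rsph1 and Dynlrb2) of the same 4 libraries. Because the secretoglobins take most of the UMIs of a club cell, other genes are diluted: the median of all genes was −1.08 on the log2 scale against alveolar type 2 cells and −1.38 against ciliated cells. With the gate genes, Sftpc and the mitochondrial genes taken out of the totals it was −0.11 and −0.40, and such values are called rescaled here. The scaling also moved the share of higher genes among all 4-fold ones from 13.2% to 41.0% against alveolar type 2 cells and from 3.19% to 19.2% against ciliated cells.

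Against alveolar type 2 cells, 241 of 10205 genes (2.36%) were at least 4-fold higher in club cells and 1581 (15.5%) at least 4-fold lower. Rescaled, 387 (3.8%) were higher and 556 (5.46%) lower. The largest ratios belonged to Bpifa1 (5738), Reg3g (at least 3307), Muc5b (3172, from 1 UMI in alveolar cells, interval 568 to 125403), Scgb3a1 (1889), Clca1 (at least 1627), Bpifb1 (1402), Ltf (at least 1279.8), Tff2 (1190.2), the tight junction claudin Cldn10 (548) and Hba-a2 (545, from 1 cell). Ltf, lactoferrin, took 72.5% of its UMIs from 1 cell of library 1, and without that library it fell from 776 to 250.05 CPM. The genes furthest below alveolar type 2 cells were Lyz1, the alarmin Il33, Bex4, Itih4, H2-DMb1, Acoxl, Cox6a2, Entpd1, Fabp5 and Hdc. Lyz1 had 0.618 CPM, 1 UMI, against 1970.0 CPM and Il33 0.618 against 403 CPM, and Itih4 and Acoxl were at 0.

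By list, 13 of 22 phase 1 enzymes compared were at least 4-fold above alveolar type 2 cells and 0 below, with a median log2 ratio of 3.14. Rescaled, which leaves the gate genes out, 15 of 21 were higher and 0 lower. Aldh1a1 was 341-fold higher (220.0 to 559) and Cyp2f2, a gate gene counted among the 13, 170.2-fold, whereas Cbr2 was 1.96-fold higher, or 3.83-fold rescaled. Of 17 club markers outside the gate 12 were higher and 1 lower, of 12 goblet genes 8 and 1, and of 24 defense genes 10 and 8. Of 18 alveolar type 2 genes 0 were higher and 16 lower, with a median of −4.18, and rescaled without Sftpc 0 and 12 of 17. Sftpc, Lamp3 and Slc34a2 are among them, so the rule for alveolar type 2 cells fixed this in part. Sftpd stood at 0.143 times the alveolar level (0.136 to 0.151) and Sftpa1 at 0.14 times (0.137 to 0.144), with overlapping intervals, while Sftpb stood at 0.0917 times (0.0867 to 0.0969).

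Against ciliated cells, 97 of 10251 genes (0.946%) were at least 4-fold higher in club cells and 2946 (28.7%) lower, or 332 (3.24%) and 1396 (13.6%) rescaled. The ciliated cells themselves held Scgb1a1 at 159955 CPM, because 17 of the 127 had it at 4% or more. In the other 110 it stood at 1549 CPM. Against those alone 229 of 9780 genes (2.34%) were higher and 3893 (39.8%) lower, and ratios of secretory genes rose, for example from 14.3 to 12993 for Bpifa1 and from 5.86 to 399 for Muc5b.

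The largest ratios over all ciliated cells belonged to hemoglobins from 1 cell (Hba-a1, Hbb-bs, Hbb-bt and Hba-a2), and then to Krt15 (at least 72.8), Upk3a (68.5), Aqp3 (62.4), Sftpc (24.3), Spib (at least 20.2) and Sox21 (18.3). Most of these also came from few club cells: Krt15, a keratin of basal cells, was found in 5 and the water channel Aqp3 in 6. The lowest ratios were those of the cilium genes Tmem212, Fam183b, Ccdc153, Ccdc113, Dnah12 and Cfap53, with Calml4, Dmkn, 3300002A11Rik and 1700024G13Rik. Tmem212 had 1 UMI in club cells and 1246 CPM in ciliated cells.

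Several enzymes were shared by the airway cells. Cbr2 had a ratio of 0.94 (0.916 to 0.965) to ciliated cells, Aldh1a1 of 0.747 and Por of 1.13, and rescaled these were 1.87, 1.48 and 2.25. Of 25 phase 1 enzymes 4 were at least 4-fold higher than in ciliated cells and 3 lower, and rescaled 10 of 24 and 2. Of 23 defense genes 11 were higher and 1 lower, with a median of 1.99, and rescaled 19 and 1. Of 17 alveolar type 2 genes 7 were higher and 1 lower, and rescaled 13 of 16 and 0. All 15 ciliated genes were at least 4-fold lower, which the rule for ciliated cells fixed in part.

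**Figure D4:**
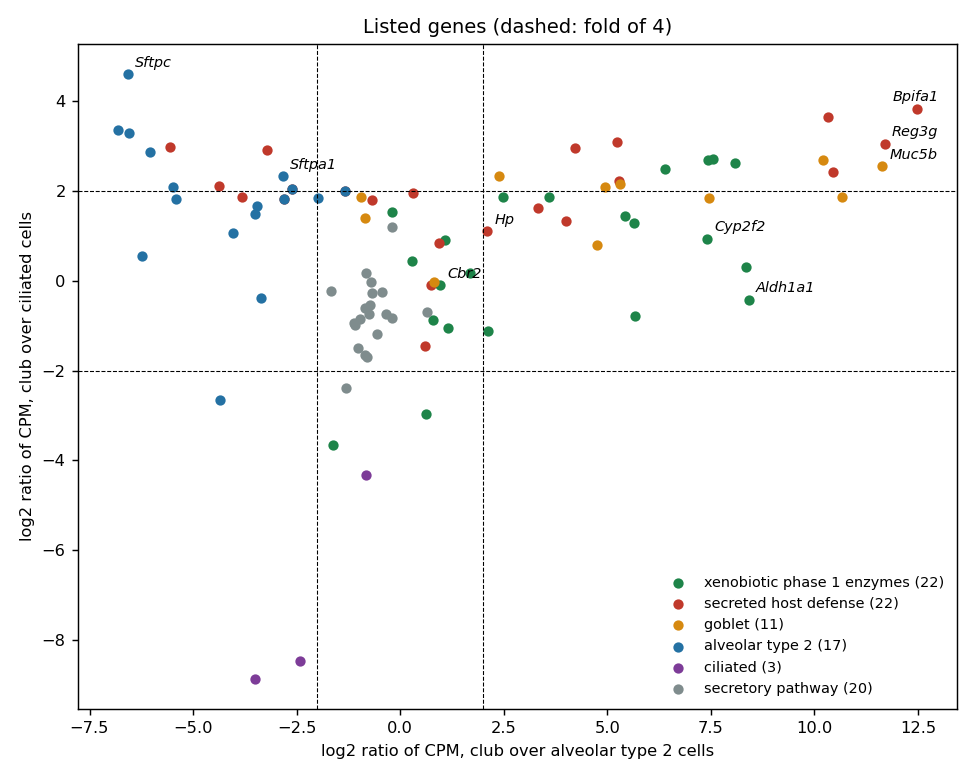
Log2 ratio of CPM in club cells over ciliated cells (vertical) against the log2 ratio over alveolar type 2 cells (horizontal) for genes of 6 lists with 20 UMIs or more in both comparisons, colored by list, with 4-fold dashed. Goblet and defense genes such as Bpifa1, Reg3g and Muc5b lie far to the right, alveolar type 2 genes to the left and above 0, and most secretory pathway genes near the medians of all genes.

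Transcription factors were detected at low levels, 26 of 26, led by Cebpb (161 CPM), Klf5 (134), Nfib (113), Nkx2-1 (92.2) and Cebpd (91.5). Nkx2-1, the lung lineage factor, lay between 85.8 and 145 CPM in the 4 libraries and was 0.219 times the alveolar type 2 level, or 0.428 rescaled. Of the 26, 3 were at least 4-fold higher than in alveolar type 2 cells and 8 lower, where 2.36% and 15.5% of all genes were, and rescaled 3 and 2, against 3.8% and 5.46%.

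The Notch pathway, which holds airway cells in the secretory state, had 15 of 16 genes detected and Dll1 at 0. Its target Hes1 led with 171 CPM (163, 98.3, 161 and 714 in libraries 1, 2, 3 and 7), and was 4.31-fold (3.58 to 5.2) above alveolar type 2 cells. The receptors Notch2 (39.0 CPM) and Notch1 (26 CPM) and the feedback regulator Nrarp (32.2 CPM) followed. The ligand Jag1 had 17.9 CPM and 0.104 times the level in ciliated cells (0.0687 to 0.151).

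Epithelial structure genes were led by Krt19 (363 CPM), Krt18 (250.5), Krt8 (226), Cldn10 (221) and Cldn3 (209), with Cldn1 at 0. Krt19 was 10.4-fold (8.75 to 12.4) above alveolar type 2 cells. Among transporters, the sodium pump subunit Atp1b1 had 393 CPM, the chloride cotransporter Slc12a2 217, the pump regulator Fxyd3 213 and the carrier Slc16a11 213, and Clca2, Atp12a and Kcne1 were at 0.

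Signals to and from immune cells were sparse. Of 23 cytokines and chemokines 14 were detected, and besides Cxcl15 only Cxcl17, a mucosal chemokine, passed 100 CPM, with 232 (369.9, 200.2, 205 and 33.5 in libraries 1, 2, 3 and 7). Cxcl5 had 35.9 CPM with 53.4% from 1 cell, Cx3cl1 17.9 CPM, and Ccl20 16.1 CPM from 1 cell. Tslp, Il25, Il1a, Csf2, Cxcl10, Ccl2, Ccl7, Ccl24 and Postn were at 0. Of 15 cytokine receptors, Il13ra1 (47.0 CPM), Fgfr2 (38.3), Ifngr1 (27.2), Tgfbr2 (18.6) and Il6ra (17.9) led, and Il13ra2 and Il22ra1 were at 0.

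Antigen presentation genes stood below their level in lymphocytes. H2-K1 had 405 CPM (799, 216, 368 and 189.6 in libraries 1, 2, 3 and 7), B2m 310.5, H2-D1 252, Cd74 97.7 and Bst2 48.9 CPM, and lymphocytes held 1764 CPM of H2-K1 and 5796 of Cd74. Cd74, the invariant chain of MHC class II, was 0.026 times the alveolar type 2 level (0.0221 to 0.0305). Of 15 genes of this list 3 were at least 4-fold higher and 6 lower than in those cells, where 2.36% and 15.5% of all genes were. Rescaled, 3 were higher and 5 lower, against 3.8% and 5.46% of all genes.

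Proteases of the lysosome were modest, with Ctsb at 180.0 CPM and Ctsh at 173 CPM, beside the annexin Anxa1 at 159.6 and the cystatin Cst3 at 139.8. Ctsl, the lysosomal protease cathepsin L, named outside the rule and after its values were seen, had 70.5 CPM (58.2 to 84.7), with 80.4, 66.1, 75.7 and 22.3 CPM in libraries 1, 2, 3 and 7. Lymphocytes held it at 63.9 CPM, and after thinning 7.81% of club cells (2.59% to 17.3%) and 6.07% of lymphocytes had a UMI of it (42.6% and 14.9% before thinning). The intervals of the thinned shares overlapped, so a difference in this share was not detectable at this depth. Both comparisons were made at equal total UMIs, of which the secretoglobins take most in a club cell. Leaving gate and mitochondrial genes out of the totals raised the other genes followed by 2.58 times. Ctsl was not compared with lymphocytes on that scale. Mmp7, Timp1, Cst6, Serpinb11 and Spink5 were at 0.

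Of 18 genes that respond to dissociation, 0 were at least 4-fold higher than in ciliated cells and 8 lower, where 28.7% of all genes were lower. Rescaled, 2 of the 18 were lower, against 13.6% of all genes. Jund led with 204 CPM, then Junb (189.9), Ier2 and Fos (153 each) and Jun (144). The summed list ran to 1592, 1457, 2306 and 792 CPM in libraries 1, 2, 3 and 7. Genes of the secretory pathway, led by Calr (228 CPM), Sec61b (205), Hsp90b1 (189), Hspa5 (162) and Spcs2 (130.5), had 20 of 20 detected. None of the 20 was 4-fold apart from alveolar type 2 cells, but most genes were not: 2.36% of all genes were higher and 15.5% lower. The rescaled median of the list was 0.20, against −0.11 for all genes. Cell cycle genes were nearly absent, with Pcna at 20.4 CPM, Tyms at 4.33, Cdk1 at 1.86, Mcm5 at 1.24 and Mki67 at 0.618 (1 UMI), and with Ccnb1, Ccnb2, Ccna2, Birc5 and Cenpf at 0.

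Of the alveolar type 1 markers Aqp5 (155 CPM), Ager (116), Hopx (69.3), Vegfa (61.8) and Emp2 (53.8) led, and Igfbp2 and Spock2 were at 0. Ager was found in 22 cells at 59, 147, 87.4 and 357 CPM in libraries 1, 2, 3 and 7, against 20.3 CPM in lymphocytes and 845 CPM in alveolar type 2 cells. Aqp5, a water channel that airway glands also use, was found in 41 cells.

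With 64 cells thinned to 2000 UMIs, the variance of UMIs over their mean was computed within each library, and the median over the libraries is given. It was largest for Scgb1a1 (142, with 67 to 1573 UMIs per cell). Then came Retnla (54.8), Scgb3a1 (48.8), Bpifa1 (46.7), Scgb3a2 (27.6), Sftpc (27.1), Fth1 (14.1), Malat1 (13.6), Tpt1 (11.8), mt-Atp6 (11.4), Lyz2 (11), Reg3g (10.4), Tmsb4x (10.3), Bpifb1 (9.23) and mt-Co1 (8.65). Sampling alone gives slightly less than 1 for most genes at a fixed total, and less for a gene with a large share such as Scgb1a1. Single libraries differed from the median: Sftpc had 1.19, 0.733, 185 and 53 in libraries 1, 2, 3 and 7, and Lyz2 15.4, 6.65, 190 and 0. Scgb3a1 was at 0 in 38 of the 64 cells and reached 152 UMIs in the highest, Bpifa1 was at 0 in 56 and reached 350, and Retnla was at 0 in 21 and reached 281.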

How the data were processed

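Whole-lung cells were captured with a Chromium 3′ kit, and per the labels the authors ran Cell Ranger with STAR on mm10; the file header gives Cell Ranger 3.1.0. What the authors deposited is a matrix of raw UMI counts (whole numbers, not normalized) of 31053 genes and 37344 barcodes of 7 libraries. The authors then filtered in Seurat on UMIs, genes and 10% mitochondrial UMIs. The matrix holds barcodes outside that filter, which was run as an alternative because it removes the deep club cells.

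Here counts were summed over club cells and divided by the total UMIs to CPM. Exact Poisson, Clopper-Pearson and conditional binomial intervals at 95% were used, and 0 was read as allowing 3 counts. Lymphocytes had 1 Ptprc UMI or more and 2 or more over Cd3d, Cd3e, Cd79a and Cd79b, and endothelial cells 2 Cdh5 UMIs or more and no Ptprc. Ratios were called at 4-fold over genes with 20 UMIs. No p-value was computed, since the libraries have no labelled group. Doublets were treated only through the gate. Near copies (Hba-a1 and Hba-a2, Hbb-bs and Hbb-bt, Cyp2a5, Lyz1 and Lyz2) can share reads.

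The members, the 24 lists (394 genes) and the rule for named genes were chosen with earlier results of these data known. Named were the gate genes, the 5 highest genes of each list and those at 0, the 10 largest ratios on each side of each comparison and over libraries, and the 15 most variable genes. Chosen after the data were seen were the limits for alike barcodes, the 10000 UMIs, the 500 CPM split with all its genes, and ciliated cells under 4% Scgb1a1. The steps were tested on simulated data with known changes. Promoters came from RefSeq (GRCm38.p6) and positions from GENCODE M21 on GRCm38. Python 3.11.15 with numpy 2.4.6, scipy 1.17.1, pandas 2.3.3 and matplotlib 3.10.9 was used.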

Additional observations from a re-analysis of the deposited data

How the results depend on the processing

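The number of club cells, 94, rose to 165 with no condition on the 4 other genes and fell to 38 with at least 10000 UMIs, and ranged from 50 to 91 with 1 library left out, the lowest being without library 3. The filter of the study kept 63 and removed 29 for UMIs above 21736, and under it 14 of the 20 genes followed moved by more than 1.5 times. With no condition on the 4 genes 8 of the 20 moved, down to 0.463 times (among them Scgb3a2, Bpifb1 and Muc5b). The mean over cells moved 9, and leaving the gate and mitochondrial genes out of the totals raised all 17 tested by 2.58 times. Leaving out library 1 moved Retnla, Clca1, Ltf and Chia1, and leaving out library 3 moved Bpifa1, Retnla, Clca1, Sftpc and Chia1. Scgb1a1 summed over all lymphocytes, 0.569% of UMIs, was 0.741% over all endothelial cells and 0.0461% in the lymphocytes under 4%, since 6 lymphocytes carried most of it, and ranged from 0.254% to 0.746% with 1 library left out, the lowest being without library 3.

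The 97 genes higher than in ciliated cells became 229 with at least 5 UMIs, 338 at 2-fold, 332 rescaled and 229 against ciliated cells under 4%. The 2946 lower ones became 6720 at 2-fold and 1396 rescaled. The 241 genes higher than in alveolar type 2 cells became 502, 403 and 387 with at least 5 UMIs, at 2-fold and rescaled, and the 1581 lower ones 5535 at 2-fold and 556 rescaled. The 611 genes that differed 4-fold between libraries became 1614 with at least 5 UMIs and ranged from 228 to 328 with 1 library left out. These counts move by construction, as fewer UMIs, a smaller fold, fewer libraries or other totals were used. No paired analysis was possible because the barcodes name libraries by number and no label ties a number to a group. Depth limits library 7 most, where 0 UMIs allow 33.5 CPM.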
